A study of Mus musculus with 12 samples.

Results

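The interferon regulatory factors (IRFs) are transcription factors that share an N-terminal DNA-binding domain with a conserved cluster of tryptophans. Their mRNAs were followed here in mouse cytotoxic T lymphocytes (CTL) as the 8 rows Irf1, Irf2, Irf3, Irf4, Irf5, Irf7, Irf8 and Irf9 of a table of 11022 genes, picked by gene symbol alone. All 8 members had a mean of at least 1 FPKM (fragments per kilobase of exon, scaled to library size), so none of them was at the detection limit.

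IRFs bind elements with repeated GAAA cores in the promoters of interferons and of interferon-stimulated genes. IRF1 is an activator and IRF2 competes for the same elements, IRF3, IRF5 and IRF7 are latent factors that are phosphorylated downstream of nucleic acid sensors and Toll-like receptors, and IRF9 is the DNA-binding subunit of the complex that answers type I interferon. IRF4 and IRF8 are the pair of members best known from lymphoid and myeloid cells. They bind weakly alone and pair with AP-1 family proteins of the BATF and JUN type or with PU.1, and in CD8+ T cells IRF4 is known as a gene whose induction follows the strength of T cell receptor (TCR) signalling.

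The 12 cultures were CTL from P14 mice, which carry a transgenic TCR specific for the gp33-41 peptide of lymphocytic choriomeningitis virus, so 1 receptor specificity is represented. Every culture was kept in 20 ng/mL IL-2, and the 4 groups of 3 were Unstimulated, TCR (100 ng/mL peptide for 4 h), TCR+PI3Kdi (the same peptide and time with 10 µM IC87114, an inhibitor of the PI3K catalytic subunit p110δ) and TCR+MEKi (the same with 2 µM PD184252, an inhibitor of MEK, the kinase that activates ERK1/2). Per the study's methods the cells were first primed with peptide, IL-2 and IL-12 and then expanded in IL-2 and came from lymph nodes or spleens of 3 female mice that gave the biological replicates. DMSO was the vehicle, and no sort of the CTL is described. A single time point and a single dose of each inhibitor were measured, and no culture received an inhibitor without peptide. P-values therefore describe the spread between these cultures.

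Sequencing depth was not listed, and spacing of the smallest FPKM values gave a rough, normalised depth of 7780000 to 13280000 reads per culture. Only 37.65% to 42.0% of those values fell at whole reads (tolerance 0.15). Chance gives 30% at a depth fixed beforehand. Here the depth was the one that fitted best, so the share by chance is higher and the depth is weakly supported. On this depth estimate the members rested on about 99 reads (the lowest Irf7 value) to about 29058 reads (the highest Irf8 value) per culture. All 7 CD8 T cell markers looked for (Cd3e, Cd3d, Cd3g, Cd8a, Cd8b1, Gzmb and Prf1) were present, with summed levels of 10107 to 16417 FPKM. Because Irf4, Irf5 and Irf8 are also genes of B cells, macrophages and dendritic cells, markers of those cells were checked. None of 7 B cell markers was listed in the table, and 3 of 11 myeloid or dendritic markers were (Itgax, Cd68 and Zbtb46), with summed levels of 8.18 to 8.95 FPKM in Unstimulated and 8.96 to 12.1 FPKM in TCR. Of these, Zbtb46, a dendritic cell transcription factor, had a mean of 0.027 FPKM in Unstimulated, 3.49 with TCR, 1.97 with PI3Kdi and 3.11 with MEKi. Cd68 had means of 8.19, 6.89, 7.26 and 7.34 FPKM in the same order, and Itgax 0.41, 0.53, 0.577 and 0.41 FPKM. Csf1r, Lyz2, Adgre1, Fcgr1, Flt3, Siglech, Clec9a and Cd14 were not listed. Of 6 CD4 T cell, NK cell or red cell markers 2 were listed (Cd4 and Klrb1c), with summed levels of 1.72 to 7.22 FPKM over all cultures. Their levels differed in pattern: in the order Unstimulated, TCR, TCR+PI3Kdi and TCR+MEKi, the mean level of Cd4 was 0.773, 2.69, 2.94 and 0.450 FPKM and that of Klrb1c 5.39, 1.79, 2.27 and 1.59 FPKM. The part of other cells in the results below was not tested.

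The genes lie on 6 chromosomes of the mm10 assembly (GRCm38), and their positions were taken from the GENCODE annotation. Irf4 is at chr13:30749226-30766976 on the plus strand, Irf8 at chr8:120736358-120756694 (plus), Irf5 at chr6:29526625-29541871 (plus) and Irf1 at chr11:53770014-53778374 (plus). Irf2 is at chr8:46739732-46847458 (plus), Irf3 at chr7:44997648-45002848 (plus), Irf7 at chr7:141262706-141266481 (minus) and Irf9 at chr14:55603571-55610030 (plus). FPKM counts reads over exons. Irf5 shares 411 exon bases, 14.1% of its exon length, with Tnpo3 on the opposite strand, and it was not stated whether reads were counted by strand. Tnpo3 had mean levels of 41.3, 40.0, 37.8 and 39.8 FPKM in Unstimulated, TCR, TCR+PI3Kdi and TCR+MEKi. The exon overlaps of the other members were at most 3.40% of exon length.

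Promoter sequences are shown for the members that changed most with peptide, Irf4 and Irf8 upwards and Irf1 and Irf7 downwards, and for Irf2, which was the one member whose window held an IRF-type element. Each is the 250 bases before an annotated start in RefSeq (GRCm38.p6), in lower case, and capitals mark matches on either strand to the IRF core AANNGAAA, the STAT element GAS (TTCNNNGAA), the AP-1 element TGANTCA or the NF-kB consensus. The window of Irf4 is chr13:30748983-30749232 (plus strand), that of Irf8 is chr8:120736108-120736357 (plus), that of Irf1 is chr11:53769764-53770013 (plus), that of Irf7 is chr7:141266425-141266674 (minus) and that of Irf2 is chr8:46739495-46739744 (plus).
Irf4: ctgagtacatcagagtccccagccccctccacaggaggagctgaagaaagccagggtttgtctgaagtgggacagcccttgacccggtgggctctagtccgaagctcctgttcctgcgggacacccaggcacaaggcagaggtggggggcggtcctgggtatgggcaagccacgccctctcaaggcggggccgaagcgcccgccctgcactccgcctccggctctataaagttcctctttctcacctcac
Irf8: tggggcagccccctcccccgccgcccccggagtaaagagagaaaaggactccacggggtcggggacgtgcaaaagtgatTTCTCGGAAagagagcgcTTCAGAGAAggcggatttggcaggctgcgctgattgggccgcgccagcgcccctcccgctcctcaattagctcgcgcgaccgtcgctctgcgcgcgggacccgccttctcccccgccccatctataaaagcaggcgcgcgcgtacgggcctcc
Irf1: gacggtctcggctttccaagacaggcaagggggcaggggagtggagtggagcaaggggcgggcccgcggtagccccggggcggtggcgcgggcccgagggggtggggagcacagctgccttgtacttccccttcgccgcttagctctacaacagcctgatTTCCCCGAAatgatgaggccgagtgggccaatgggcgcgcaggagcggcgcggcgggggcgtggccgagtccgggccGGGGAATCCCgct
Irf7: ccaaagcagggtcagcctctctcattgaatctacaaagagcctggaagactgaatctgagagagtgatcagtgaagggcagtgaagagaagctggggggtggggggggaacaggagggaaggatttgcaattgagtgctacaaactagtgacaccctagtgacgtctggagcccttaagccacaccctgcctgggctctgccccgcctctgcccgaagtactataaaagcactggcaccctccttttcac
Irf2: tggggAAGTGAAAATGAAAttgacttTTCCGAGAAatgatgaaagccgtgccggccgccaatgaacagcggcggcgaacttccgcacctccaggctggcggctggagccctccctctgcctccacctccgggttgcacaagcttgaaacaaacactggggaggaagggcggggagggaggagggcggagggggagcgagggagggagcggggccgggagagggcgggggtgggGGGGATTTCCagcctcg

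The Irf8 window held a pair of GAS matches, at 171 to 163 and 153 to 145 bases before the start. In Irf1, 1 GAS match lay 90 to 82 bases and 1 NF-kB match 13 to 4 bases before the start. The Irf2 window held a pair of IRF cores that overlapped each other, at 245 to 238 and 239 to 232 bases, followed by a GAS match at 224 to 216 bases and an NF-kB match at 17 to 8 bases. Over the 11 windows listed for the 8 members, 3 held GAS, 2 NF-kB, 1 the IRF core and 0 AP-1, where 7.02%, 3.90%, 21.3% and 6.75% of 32851 promoter windows of the same length did. Irf1 and Irf8, which both held GAS, moved in opposite directions with peptide. The windows of Irf4, Irf5 and Irf7, which also moved, held none of the 4 elements. Only matches to these short sequences inside the windows were looked for, so variant or more distant sites were not covered. Whether any of the elements takes part in the changes with peptide was not tested.

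Peptide changed which IRF mRNAs the CTL carried. Compared with Unstimulated, 3 of the 8 members were called higher in TCR (Irf4, Irf8 and Irf5) and 2 were called lower (Irf1 and Irf7). A gene was called where the adjusted p was under 0.05 and the change was over 2-fold. Over all 11022 genes, 8.87% were called higher and 11.1% lower. In RNA from whole cultures, fewer cells that express a gene and less of its mRNA per cell cannot be told apart. The summed FPKM of each culture was also higher after peptide (620715 to 666922) than before (470420 to 495945), and bringing all cultures to 1 common sum moved the median change of all genes to −0.41 on the log2 scale, from −0.010, so each change below is relative to the deposited normalisation.

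**Figure D1:**
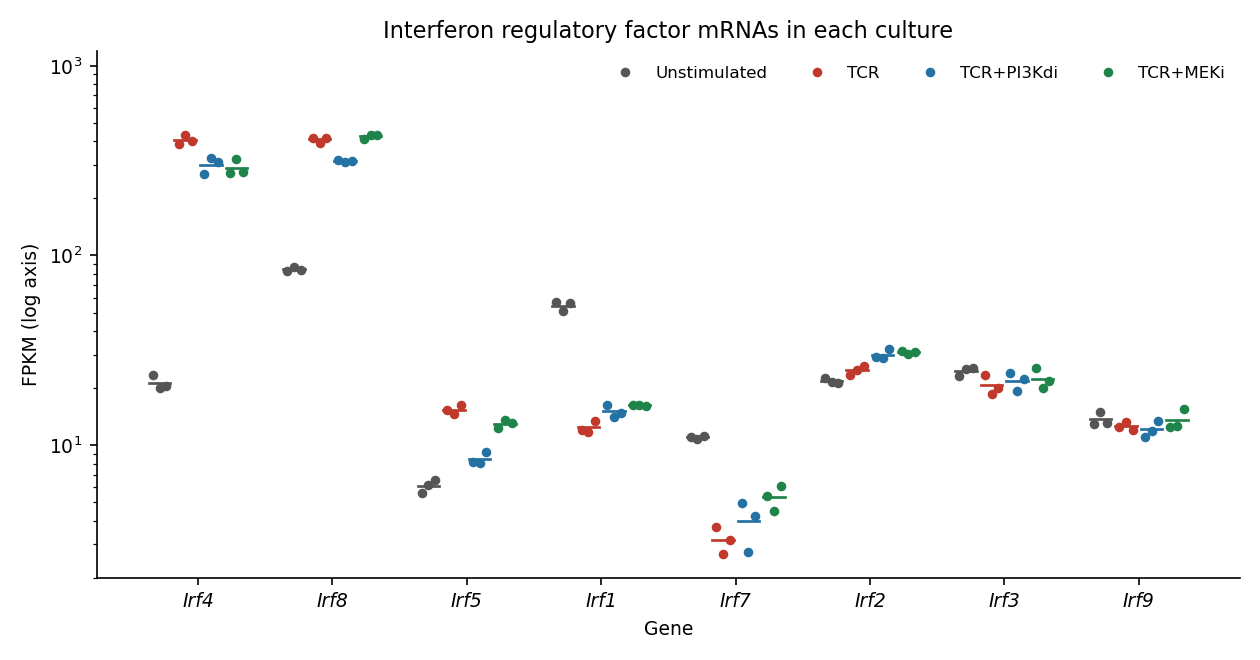
FPKM of the 8 Irf mRNAs (log axis) in each of the 12 cultures, coloured by group, with a bar at each group's mean of 3 cultures. Irf4 and Irf8 sit between 269 and 433 FPKM in every culture given peptide and between 20.1 and 87.4 FPKM in Unstimulated, while Irf1 and Irf7 sit lower in every culture given peptide than in any Unstimulated culture.

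Irf4 gave the largest change in the family. Its level was 23.6, 20.1 and 20.6 FPKM in the 3 Unstimulated cultures and 387, 429.6 and 402 FPKM in the 3 TCR cultures. The groups were far apart, with means of 21.4 ± 1.9 and 406 ± 22 FPKM (SD, n = 3), a ratio of 19.0. The log2 fold change was 4.24 (SE 0.083, adjusted p = 4.76e-15 by limma), above that of 99.0% of all genes.

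Irf8, the closest relative of Irf4, began from a higher level and reached the same one. It stood at 82.4, 87.4 and 83.9 FPKM in Unstimulated and at 418, 393 and 416 FPKM in TCR. The groups did not overlap, and the 4.83-fold ratio of the means corresponded to a log2 fold change of 2.27 (SE 0.048, adjusted p = 9.11e-15). After peptide the ranges of Irf4 and Irf8 overlapped, whereas in Unstimulated each Irf8 value was above each Irf4 value. Within single cultures the ratio of Irf8 to Irf4 FPKM was 3.98 ± 0.43 in Unstimulated and 1.01 ± 0.09 in TCR (SD, n = 3), a quantity that no rescaling of a culture can move.

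Irf5, an activator downstream of Toll-like receptors, was the least abundant member in Unstimulated. It measured 5.58, 6.18 and 6.55 FPKM there and 15.3, 14.6 and 16.3 FPKM in TCR. The groups were apart and the means differed 2.53-fold (log2 fold change 1.33, SE 0.085, adjusted p = 2.93e-09). With all cultures brought to a common FPKM sum the change was 0.92 on the log2 scale and fell short of 2-fold.

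Irf1 fell the most. It was the second most abundant member in Unstimulated, at 56.6, 50.8 and 56.1 FPKM, and it dropped to 12.1, 11.8 and 13.4 FPKM in TCR. No value of one group came near the other, the Unstimulated mean was 4.39 times the TCR mean, and the log2 fold change was −2.12 (SE 0.072, adjusted p = 2.09e-12). Irf2, its competitor at the same DNA elements, measured 22.6, 21.5 and 21.2 FPKM in Unstimulated and 23.6, 25.1 and 26.1 FPKM in TCR. The ranges of Irf2 did not overlap, but its log2 fold change of 0.19 (SE 0.061, adjusted p = 0.0107) was small, became −0.22 (adjusted p = 0.0184) with a common FPKM sum, and no longer passed without TCR replicate 3 (0.16, adjusted p = 0.0533). The ratio of Irf1 to Irf2 within a culture went from 2.51 ± 0.14 in Unstimulated to 0.499 ± 0.025 in TCR (SD, n = 3), so the order of the activator and its competitor was inverted in all 3 cultures of each group.

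Irf7, the factor that amplifies type I interferon responses, also fell. It was at 11.1, 10.8 and 11.1 FPKM in Unstimulated and at 3.69, 2.66 and 3.18 FPKM in TCR. The 3.47-fold difference of the means (log2 fold change −1.77, SE 0.18, adjusted p = 5.43e-07) was many times the spread, although Irf7 had the widest error of the family. Irf3, the related factor that is present before any stimulus, ran from 23.2 to 25.7 FPKM in Unstimulated and from 18.6 to 23.4 FPKM in TCR. These ranges overlapped, and its log2 fold change was −0.26 (SE 0.10, adjusted p = 0.0379 by limma). This change was lost when the variance was not tied to expression (adjusted p = 0.0676) and without Unstimulated replicate 2 or 3 or TCR replicate 2 or 3. Leaving out TCR replicate 2 gave −0.18 (adjusted p = 0.156). The fall of Irf3 passed with quantile normalisation (−0.28, adjusted p = 0.0269) and with the replicate block (−0.26, adjusted p = 0.0140). With a common FPKM sum it was larger (−0.67, adjusted p = 9.29e-06). Irf9, the DNA-binding subunit of the interferon-activated STAT complex, ran from 12.9 to 14.99 FPKM and from 11.99 to 13.3 FPKM. It did not pass the test (log2 fold change −0.12, 95% interval −0.33 to 0.094, adjusted p = 0.307), but with a common FPKM sum it did (−0.53, adjusted p = 0.000435).

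**Figure D2:**
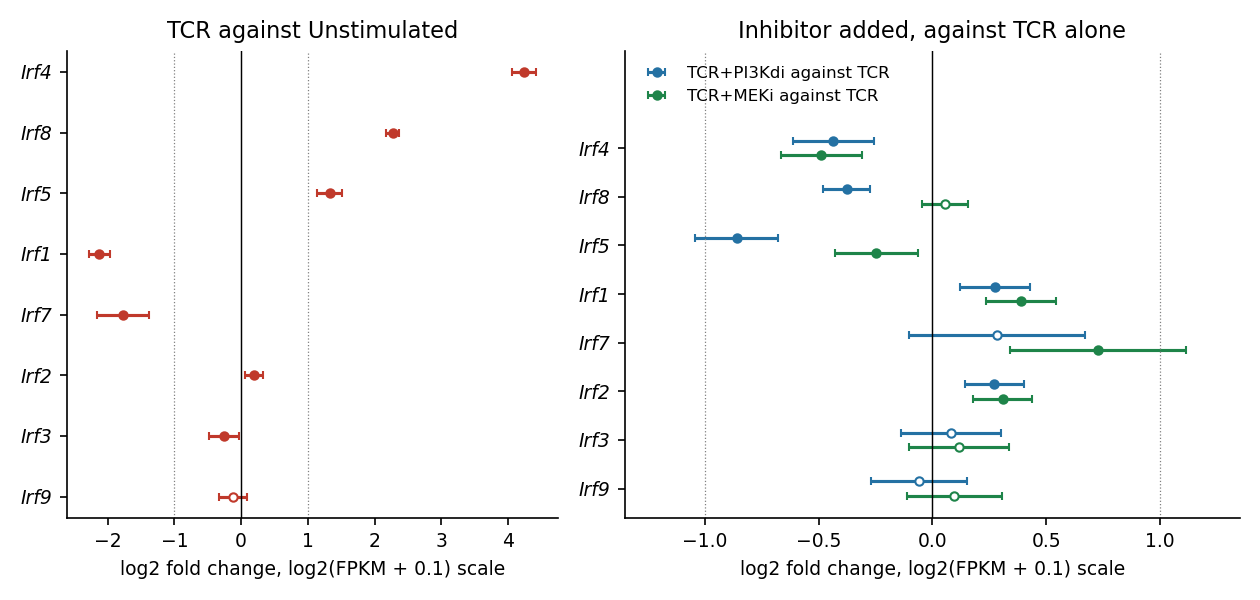
Log2 fold changes on the log2(FPKM + 0.1) scale with 95% intervals from limma, for TCR against Unstimulated (left) and for each inhibitor against TCR (right), on different horizontal scales. Filled points passed an adjusted p of 0.05 and dotted lines mark 2-fold; Irf4, Irf8, Irf5, Irf1 and Irf7 lie past them on the left and no gene does on the right. The direction of Irf2 on the left, of Irf9 with PI3Kdi and of Irf5 with MEKi was the opposite when all cultures were brought to a common FPKM sum.

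The family as a whole became dominated by a pair of genes. Summed over the 8 members, the level rose from 238 ± 0.80 FPKM in Unstimulated to 904 ± 8.0 FPKM in TCR (SD, n = 3). Irf8 and Irf1 made up 35.6% and 22.9% of the sum before peptide and Irf4 9.01%. In TCR, Irf8 made up 45.2%, Irf4 44.9% and Irf1 1.37%. In rank among all genes, Irf4 went from above 68.6% of the table to above 98.3%, and Irf1 from above 87.1% to above 54.3%. Of neighbours in the order of levels, Irf2 and Irf4 overlapped in Unstimulated, and Irf8 and Irf4 as well as Irf9 and Irf1 overlapped in TCR, while all other neighbours were apart.

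**Figure D3:**
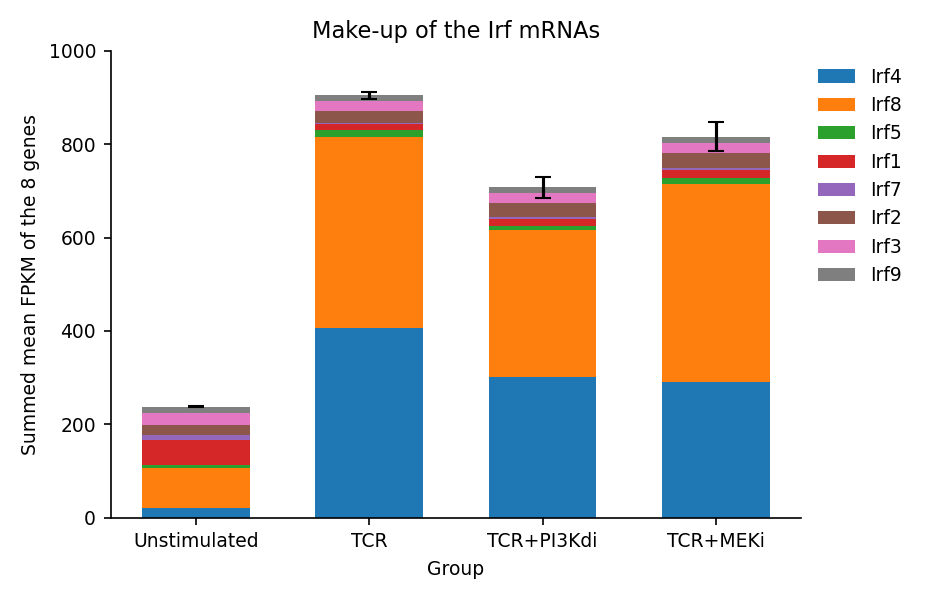
Stacked mean FPKM of the 8 Irf mRNAs in each group, with the SD of the summed level over 3 cultures as an error bar. The total is 238 in Unstimulated, 904 in TCR, 707 in TCR+PI3Kdi and 816 in TCR+MEKi, and Irf4 and Irf8 make up most of it wherever peptide was given.

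The next question was how far PI3K p110δ and MEK activity entered these changes. With PI3Kdi, 0 of the 8 members differed from TCR by more than 2-fold, where 1.88% of all genes were called either way. At the adjusted p alone, 2 members were higher (Irf1 and Irf2) and 3 were lower (Irf4, Irf5 and Irf8), beside 12.7% and 12.8% of all genes. With MEKi 0 of 8 were called too, beside 3.49% of all genes. Here 3 were higher at the adjusted p alone (Irf1, Irf2 and Irf7) and 2 lower (Irf4 and Irf5), beside 18.9% and 18.2% of all genes. Both comparisons use the same TCR cultures. A common FPKM sum moved the median change of all genes to 0.19 with PI3Kdi and 0.26 with MEKi on the log2 scale, from 0.015 and 0.0098, and the split of the members became 4 higher and 3 lower with PI3Kdi and 6 higher and 1 lower with MEKi.

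Irf4 was lower with either inhibitor and stayed far above Unstimulated. It read 269, 325 and 309 FPKM with PI3Kdi and 272, 321 and 277 FPKM with MEKi, all below the lowest TCR culture at 387 FPKM. The log2 fold changes from TCR were −0.44 (SE 0.083, adjusted p = 0.00162) and −0.49 (SE 0.083, adjusted p = 0.000404). They shrank to −0.25 (adjusted p = 0.0430) and −0.23 (adjusted p = 0.0498) with a common FPKM sum, and the first missed the threshold with quantile normalisation (−0.24, adjusted p = 0.0884). Replicate 2 was the highest for Irf4 in each of the 3 groups given peptide.

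Irf8 was lower with PI3Kdi and was at the level of TCR with MEKi. The cultures with PI3Kdi read 318, 310.0 and 316 FPKM, below every TCR culture, and those with MEKi read 410.4, 431 and 433 FPKM, a range that overlapped that of TCR. The change with PI3Kdi was −0.38 (SE 0.048, adjusted p = 6.83e-05) on the log2 scale, which shrank to −0.19 (adjusted p = 0.00590) with a common FPKM sum and −0.18 (adjusted p = 0.00953) with quantile normalisation. With MEKi it was 0.056 (95% interval −0.047 to 0.16, adjusted p = 0.390), which became 0.32 (adjusted p = 6.41e-05) with a common FPKM sum and 0.26 (adjusted p = 0.000403) with quantile normalisation. The ratio of Irf8 to Irf4 within a culture, 1.01 in TCR, was 1.05 ± 0.12 with PI3Kdi and 1.47 ± 0.11 with MEKi (SD, n = 3), where each MEKi culture lay above all cultures of the other groups given peptide.

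Irf5 showed the largest response to PI3Kdi among the members. Its levels were 8.15, 8.02 and 9.21 FPKM with PI3Kdi, all below the lowest TCR culture at 14.6 FPKM and all above the highest Unstimulated culture at 6.55 FPKM. The log2 fold change from TCR was −0.86 (SE 0.085, adjusted p = 7.71e-06), lower than that of all but 2.00% of genes and short of 2-fold. With MEKi the levels were 12.3, 13.6 and 13.1 FPKM, also below every TCR culture, with a change of −0.25 (SE 0.085, adjusted p = 0.0349). That smaller change did not pass without TCR replicate 1 or 3 (adjusted p = 0.0676 and 0.125) or MEKi replicate 1 or 3 (adjusted p = 0.121 and 0.0755), and it was 0.014 (adjusted p = 0.906) with a common FPKM sum.

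Irf1 and Irf2 were modestly higher with either inhibitor. Irf1 read 16.3, 14.1 and 14.8 FPKM with PI3Kdi and 16.3, 16.4 and 16.2 FPKM with MEKi, each above the highest TCR culture at 13.4 FPKM and far under the lowest Unstimulated culture at 50.8 FPKM. Its changes from TCR were 0.28 (SE 0.072, adjusted p = 0.0114) and 0.39 (SE 0.072, adjusted p = 0.000738). Irf2 read 29.2, 28.8 and 32.2 FPKM with PI3Kdi and 31.3, 30.4 and 30.8 FPKM with MEKi, each above every TCR and every Unstimulated culture, with changes of 0.27 (SE 0.061, adjusted p = 0.00459) and 0.31 (SE 0.061, adjusted p = 0.00117). With a common FPKM sum these changes were larger, 0.46 with PI3Kdi and 0.65 with MEKi for Irf1, and 0.45 and 0.57 for Irf2. The ratio of Irf1 to Irf2 within a culture was 0.502 ± 0.049 with PI3Kdi and 0.528 ± 0.009 with MEKi (SD, n = 3), beside 0.499 in TCR.

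Irf7 was higher with MEKi than with peptide alone. It read 5.39, 4.50 and 6.06 FPKM there, above every TCR culture and below every Unstimulated culture, a change of 0.73 (SE 0.18, adjusted p = 0.00610). With PI3Kdi it read 4.95, 2.72 and 4.24 FPKM, which overlapped TCR but was higher in 3 of 3 same-numbered pairs (0.28, 95% interval −0.10 to 0.67, adjusted p = 0.274) and passed the test only without PI3Kdi replicate 2 (0.53, adjusted p = 0.0228) or with a common FPKM sum (0.46, adjusted p = 0.0437). Replicate 2 was the lowest for Irf7 in each of the 4 groups. Irf3, at 19.3 to 24.0 FPKM with PI3Kdi and 20.1 to 25.4 FPKM with MEKi, and Irf9, at 11.1 to 13.4 and 12.5 to 15.5 FPKM, overlapped TCR in both cases and passed neither test, with or without the replicate block. Irf3 was higher in 3 of 3 same-numbered pairs with each inhibitor, and Irf9 in 1 of 3. For Irf3 the intervals of the change were −0.14 to 0.30 and −0.10 to 0.34, and for Irf9 −0.27 to 0.15 and −0.11 to 0.31. With a common FPKM sum, Irf3 was higher with either inhibitor (0.26 and 0.38, adjusted p = 0.0404 and 0.00363) and Irf9 was higher with MEKi (0.36, adjusted p = 0.0129) and read 0.12 with PI3Kdi.

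Set against Unstimulated, most of the members called in TCR were also called with either inhibitor. With PI3Kdi, Irf4 and Irf8 were called higher (beside 7.16% of all genes) and Irf1 and Irf7 lower (beside 7.43%). With MEKi, Irf4, Irf5 and Irf8 were called higher (beside 6.95%) and Irf1 and Irf7 lower (beside 6.46%). Irf5 with PI3Kdi rose by less than 2-fold over Unstimulated (0.46, SE 0.085, adjusted p = 0.000248), and by 0.24 (adjusted p = 0.0332) with a common FPKM sum. The MEKi calls of Irf5 and Irf7, at 1.08 (SE 0.085) and −1.05 (SE 0.18), were close to the 2-fold limit. Both were lost with a pseudocount of 1 (0.98 and −0.93), that of Irf5 with a common FPKM sum (0.93) and that of Irf7 without MEKi replicate 2 (−0.93).

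The change in FPKM from Unstimulated with each inhibitor was also expressed as a share of that in TCR, as a description without a test. No culture received an inhibitor without peptide, so an effect of the inhibitor on the level without peptide cannot be told apart from one on the response. Each SD is over the 3 inhibitor cultures, with the Unstimulated and TCR means held fixed, so it leaves out the spread of those means. Irf4 kept 72.7 ± 7.5% with PI3Kdi and 69.8 ± 6.9% with MEKi (SD, n = 3). Irf8 kept 71.0 ± 1.3% and 105 ± 3.8%. For Irf5 the shares were 25.3 ± 7.0% and 73.9 ± 7.0%. The fall of Irf1 was kept to 93.7 ± 2.6% and 90.8 ± 0.22%, and that of Irf7 to 89.9 ± 15% and 72.7 ± 10.0%.

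**Figure D4:**
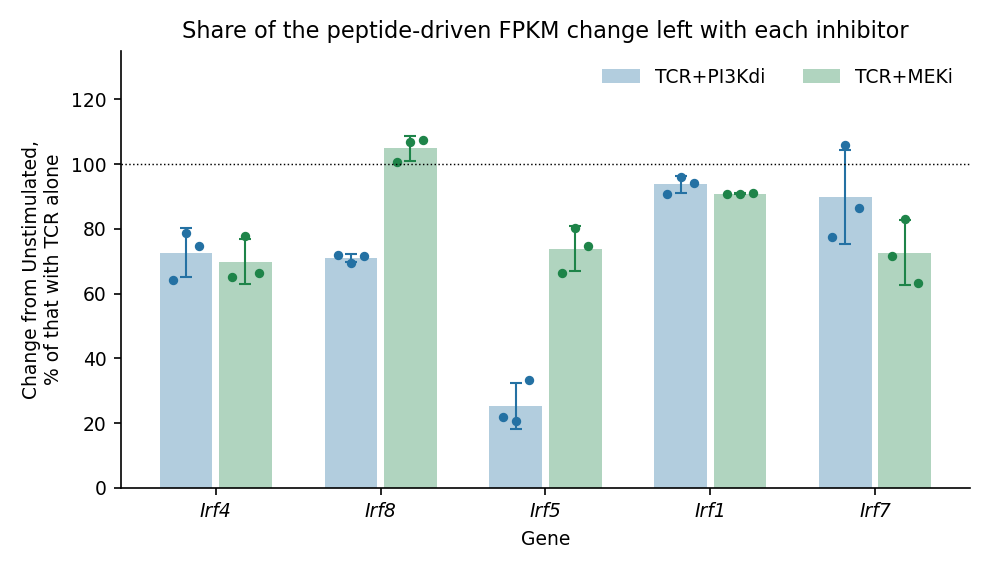
Change in FPKM from the Unstimulated mean as a percentage of the change of the TCR mean, for the 5 members called with peptide. Bars are means of 3 cultures, points single cultures, and the dotted line marks TCR alone. Error bars are the SD with the Unstimulated and TCR means held fixed. Values are on the deposited scale, and the level with an inhibitor but no peptide was not measured. Irf5 with PI3Kdi stands at 25.3% and with MEKi at 73.9%, and Irf8 at 71.0% and 105%, whereas the cultures of Irf4 overlap between the inhibitors.

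The inhibitors were then compared with each other, in cultures that share no samples. No member was called between TCR+MEKi and TCR+PI3Kdi (0 of 8, beside 3.09% of all genes), and 2 members were higher with MEKi at the adjusted p alone, beside 14.5% of all genes. These were Irf5, by 0.61 (SE 0.085, adjusted p = 8.09e-05), and Irf8, by 0.43 (SE 0.048, adjusted p = 1.03e-05), and in both all 3 MEKi cultures lay above all 3 PI3Kdi cultures. With a common FPKM sum the differences were 0.69 and 0.51. Irf4 did not differ detectably, with a difference of −0.054 and a 95% interval of −0.23 to 0.12 (adjusted p = 0.668), and its sign turned with a common FPKM sum (0.026). Irf7 was 0.44 higher with MEKi (SE 0.18, adjusted p = 0.0811), and with the replicate number as a block it passed the test (adjusted p = 0.0211), as it did without PI3Kdi replicate 1 (0.62, adjusted p = 0.0196) and with a common FPKM sum (0.52, adjusted p = 0.0297).

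The genes whose pattern over the 12 cultures was most like that of a member are given by Pearson's r of log2(FPKM + 0.1) among 10232 genes, as a description, since the 12 points share 4 group means. For Irf4 these were the chemokine genes Ccl1 (r = 0.998) and Ccl4 (0.998) and the proton-sensing receptor gene Gpr65 (0.998). For Irf8 they were the neutral amino acid transporter Slc1a4 (0.999), the mannose-6-phosphate receptor M6pr (0.997) and the NF-kB subunit Relb (0.997). Relb had mean levels of 7.41, 50.4, 37.6 and 53.3 FPKM in Unstimulated, TCR, TCR+PI3Kdi and TCR+MEKi, the same order as Irf8.

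Irf5 was most like the survival gene Bcl2l1 (r = 0.984), the ribosome biogenesis gene Ppan (0.983) and the glycolytic enzyme gene Hk2 (0.981). Bcl2l1 had mean levels of 57.5, 171.7, 93.6 and 140.3 FPKM in the 4 groups in the order above. Irf1 was most like Rras2 (0.996), the interferon-inducible GTPase gene Gm12250 (0.995) and Pglyrp2 (0.994), and Irf7 was most like Cc2d1b (0.989), Smarcd2 (0.979) and Prr12 (0.979). Among the members themselves, r was 0.981 between Irf4 and Irf8, 0.933 between Irf1 and Irf7, and −0.994 between Irf4 and Irf1.

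Around the family, 55 genes of 5 lists were in the table. They cover the sensors and adaptors that activate IRF3, IRF5 and IRF7 (12 genes), interferon with its receptors, kinases and STATs (10), AP-1 type DNA-binding partners (5), cofactors (4) and interferon-stimulated genes (24). With peptide, 8 of the 55 were called higher and 18 lower (beside 8.87% and 11.1% of all genes), with a median log2 fold change of −0.47 where that of all genes was −0.010. With a pseudocount of 1 in place of 0.1, 17 of the 55 were called in all.

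Among sensors, Ifih1 (MDA5) rose from 1.76 ± 0.12 to 8.53 ± 0.76 FPKM (SD, n = 3; log2 fold change 2.21), whereas Ddx58 (RIG-I) fell from 16.7 ± 0.35 to 5.61 ± 0.61 FPKM (−1.56). In the second list Ifng, the hallmark cytokine of CTL, rose from 72.4 ± 3.3 to 29597 ± 1379 FPKM (8.67). Jak2, a kinase at the interferon-γ receptor, rose by 2.25 on the log2 scale. Jak1, also a kinase at that receptor, fell by less than 2-fold (−0.51, adjusted p = 3.48e-06 by limma). Both chains of the interferon-γ receptor fell, Ifngr1 (−1.96) and Ifngr2 (−2.64), and so did the type I interferon receptor chain Ifnar2 (−1.55). Ifngr1 went from 195 ± 6.4 to 50.1 ± 1.2 FPKM, whereas Ifngr2 was at low levels, at 3.85 ± 0.47 and 0.56 ± 0.24 FPKM. Ifng and Jak2 thus moved the other way from Jak1, Ifngr1 and Ifngr2.

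Of the DNA-binding partners of IRF4 and IRF8, Batf3 rose by 1.59 on the log2 scale, from 20.7 ± 2.3 to 62.5 ± 6.1 FPKM (SD, n = 3), and Junb by 1.19. Of the cofactors, Trim21, a ubiquitin ligase that acts on IRFs, fell by 1.01. Of the 24 interferon-stimulated genes 12 were called lower and 3 higher, beside 11.1% and 8.87% of all genes. The largest falls were those of Oas3 (−1.94), Ifit2 (−1.65), Mx1 (−1.57) and Rtp4 (−1.52), and Oas3 went from 26.2 ± 0.24 to 6.78 ± 0.85 FPKM. Ifit2 and Rtp4 were at low levels, with means of 1.83 and 2.27 FPKM in Unstimulated and 0.517 and 0.733 FPKM in TCR. Some of the other falls that were called lay near the 2-fold limit. Those called higher were Rsad2 (1.33), Cxcl10 (1.31) and Oasl1 (1.01), all with means under 3 FPKM in both groups.

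**Figure D5:**
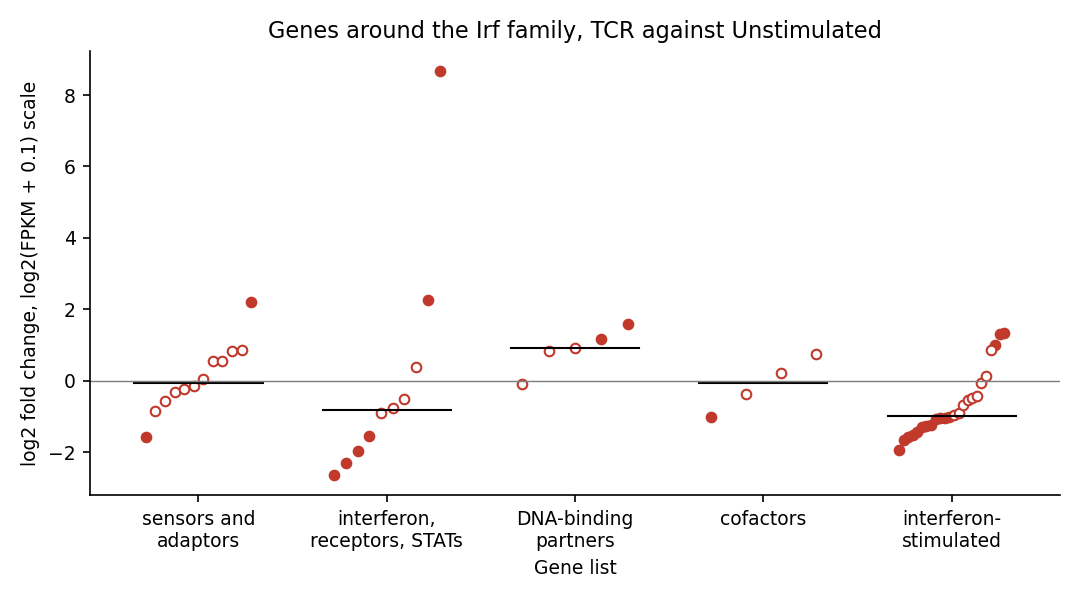
Log2 fold changes on the log2(FPKM + 0.1) scale, TCR against Unstimulated, for 55 genes in 5 lists around the Irf family; each point is a gene, filled where called, and the black bars are list medians. The highest point is Ifng at 8.67, and 12 filled points of the interferon-stimulated list lie below 0 against 3 above.

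With PI3Kdi, 1 of the 55 was called against TCR, near the 1.88% of all genes called. This was Ifngr1, which was higher by 1.20 (SE 0.048, adjusted p = 1.51e-09), at 115 ± 3.6 against 50.1 ± 1.2 FPKM (SD, n = 3). At the adjusted p alone 5 were higher and 14 lower, beside 12.7% and 12.8% of all genes. With MEKi, 3 were called higher, namely Ikbke (1.04), the kinase IKKε that phosphorylates IRF3 and IRF7, and the interferon-stimulated Usp18 (1.02) and Cxcl10 (1.02), and 2 lower, Ifih1 (−1.59) and Jak2 (−1.11), beside 3.49% of all genes called either way. The changes of Ikbke, Usp18 and Cxcl10 lie near the 2-fold limit, and without TCR replicate 2 the number of the 55 called was 3. At the adjusted p alone 19 were higher and 6 lower with MEKi, beside 18.9% and 18.2% of all genes. Ifngr1 was among those higher, by 0.94 (SE 0.048, adjusted p = 3.97e-09 by limma), at 96.3 ± 2.7 FPKM. Its rise was thus seen with both inhibitors, and with MEKi it fell just short of 2-fold. Between the inhibitors 4 were called (beside 3.09% of all genes), each higher with MEKi, namely Ikbke (1.61), Usp18 (1.20), Batf3 (1.09) and Cmpk2 (1.02). Ikbke read 34.5 ± 3.7 FPKM with MEKi and 11.3 ± 1.5 FPKM with PI3Kdi, and Batf3 read 106 ± 9.1 and 50.5 ± 14 FPKM (SD, n = 3). Cmpk2 was at low levels, at 1.21 ± 0.47 FPKM with MEKi and 0.55 ± 0.24 FPKM with PI3Kdi. The differences of Batf3 and Cmpk2 lie near the 2-fold limit.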

How the data were processed

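RNA from 12 CTL cultures was sequenced by the authors from TruSeq stranded mRNA libraries. Per the study's methods and the submitters' processing notes, reads were aligned to mm10 with STAR 2.4.2a, counted over RefSeq genes with Subread 1.5.0, filtered for low expression, normalised by TMM in edgeR and deposited as FPKM over summed exon length, rounded to 2 decimals. Counts, total reads and the strand setting were not used here, so the voom fit of the study was replaced by limma 3.58.1 (R 4.3.3), which fitted log2(FPKM + 0.1) with 1 mean per group over all 12 cultures and a variance trend, tested two-sided and adjusted by Benjamini-Hochberg over 11022 genes. A gene was called at an adjusted p under 0.05 and a change over 2-fold. "Common FPKM sum" means each culture rescaled to the mean summed FPKM. The fit was tested on simulated data. Plots and sequence matches used Python 3.11.15.

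Groups came from the sample labels. The members and gene lists were chosen with earlier results of these data known. All 8 members were named, from each list the called genes with the largest change (up to 4 per comparison), and for each called member the 3 genes with the highest r among those with a mean of at least 1 FPKM in a group. Jak1, Ifngr1 and Ifnar2 under peptide, Ifngr1 with MEKi, and the interferon-stimulated genes called higher under peptide, were named after their values were seen. Of the genes that rule names, 1 is not reported here. Deviations from group means (9899 genes) were correlated between same-numbered cultures. The lowest r was 0.239 for PI3Kdi and TCR, 0.122 for MEKi and TCR and 0.137 for MEKi and PI3Kdi. With Unstimulated it was 0.117 for MEKi, 0.0037 for TCR and −0.062 for PI3Kdi. The same replicate numbers label all 4 groups, but it was not stated outright that 1 number means 1 source of cells. The main fit used no block, and the replicate block was run as an alternative. The alternatives were a pseudocount of 0.01 or 1, a minimum mean of 1 FPKM, a common FPKM sum, quantile normalisation, a replicate block, the compared groups alone, no variance trend, no fold threshold and leaving out each culture.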

Additional observations from a re-analysis of the deposited data

Results flagged for a closer look

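A pair of members responded differently to the inhibitors, by a direct test of TCR+MEKi against TCR+PI3Kdi (limma, Benjamini-Hochberg over all genes). Irf5 was 0.614 higher with MEKi on the log2 scale (adjusted p = 8.09e-05, higher in 3 of 3 same-numbered pairs), and Irf8 was 0.432 higher (adjusted p = 1.03e-05, higher in 3 of 3). Neither difference reached 2-fold. Irf7 did not pass in this fit (0.444, adjusted p = 0.0811). It passed with the replicate block (adjusted p = 0.0211) and with a common FPKM sum (0.522, adjusted p = 0.0297).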

How the results depend on the processing

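Without the fold threshold, 5 members (PI3Kdi against TCR), 5 (MEKi against TCR) and 2 (MEKi against PI3Kdi) were called where 0 were with it, and 50, 19, 25 and 32 of the 55 surrounding genes in the 4 comparisons (TCR against Unstimulated first) where 26, 1, 5 and 4 were. A pseudocount of 1 gave 3 members for MEKi against Unstimulated in place of 5 (Irf5 0.98, Irf7 −0.93), 17 surrounding genes for TCR against Unstimulated and 3 for MEKi against TCR, and quantile normalisation gave 3 in the last. Leaving out 1 culture gave 3 to 5 surrounding genes there, with 3 without TCR replicate 2. A common FPKM sum reversed Irf2 (TCR against Unstimulated, −0.22), Irf9 (PI3Kdi against TCR, 0.12), Irf5 (MEKi against TCR, 0.014) and Irf4 (MEKi against PI3Kdi, 0.026), and put Irf5 at 0.92 (TCR) and 0.93 (MEKi) against Unstimulated. Leaving out 1 culture turned the sign of changes near 0. Irf9 ranged from −0.14 to 0.0039 (PI3Kdi against TCR), from −0.0025 to 0.15 (MEKi against TCR) and from −0.12 to 0.047 (MEKi against Unstimulated), and, in MEKi against PI3Kdi, Irf3 from −0.055 to 0.11 and Irf4 from −0.13 to 0.0036. The cause of the shifts on leaving out a culture was not tested. A common FPKM sum rescales whole cultures, so it moved the median change of all genes along with the members. The replicate block changed no call of a member at 2-fold and gave 2206, 209, 389 and 349 called genes in all where 2202, 207, 385 and 341 were called without it. Over all alternatives, 686 values of single members kept direction and call, 17 gained a call, 5 lost it and 12 turned. All 17 gains came from dropping the fold threshold, which reuses the main fit and so could not change a direction.

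Depth was known only coarsely, so no counting interval is given for Irf7, the member with fewest reads.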
